A study of Homo sapiens with 6 samples.

Results

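Cell junctions were examined through 10 genes of the adherens and tight junctions: the cadherin genes CDH1 and CDH3, the claudin genes CLDN1, CLDN3, CLDN4, CLDN7 and CLDN10, the occludin gene OCLN, the scaffold gene TJP1 and F11R, which encodes JAM-A. They were picked by name, with earlier results of these data known, and found by their Entrez Gene IDs. Their counts and medians set beside those of all genes are therefore descriptions and no test of the list. All 10 were among the 18795 genes measured, and all 10 were among the 12454 genes whose mean reached 1 FPKM and that entered the tests. FPKM scales a gene's fragments by its transcript length and by the fragments mapped in the library. It lets levels of different genes be set side by side, though only roughly here. The annotation used is not given, and in RNA from methanol-fixed cells the loss of fragments can depend on transcript length.

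The study sequenced RNA from sorted subpopulations of HCC70 and MDA-MB-468, 2 established human lines of basal-like breast cancer. Cells were detached, fixed and permeabilized in methanol, stained for keratin 18 (K18), keratin 14 (K14) and vimentin (Vim), and sorted. The 3 populations were K18+, K18+K14+ and K18+Vim+, each with 1 library from each line, with no drug or genetic treatment named in any group. The 6 libraries therefore give n = 2 per population and the lines are the only replicates, so that p-values measure the spread between these libraries and not between separate cultures. The number of reads behind each value is unknown, and no counting error can be given. The lines were grown in different media (RPMI for HCC70, Leibovitz L15 for MDA-MB-468), so that line and medium cannot be told apart. In bulk RNA, fewer cells that express a gene and less of its RNA per cell cannot be told apart either.

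Adherens junctions join neighbouring epithelial cells through cadherins, whose cytoplasmic tails hold catenins that link them to actin. Tight junctions lie above them and seal the space between cells: claudins form the strands, occludin and JAM-A sit in the same membrane, and ZO-1, the product of TJP1, is the scaffold beneath. Factors of the SNAI, ZEB and TWIST families can repress CDH1 and several claudin genes, and cells that pass from an epithelial to a mesenchymal state commonly lose these junctions and gain vimentin and N-cadherin (CDH2).

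Promoter sequences were taken from RefSeq (build GRCh38.p14) as windows of 300 bases, 250 before to 50 after an annotated start, read 5′ to 3′ on the gene's strand. Windows were at hand for 7 of the 10 genes (13 windows). They are shown for the claudins that differed most between lines or libraries. The CLDN7 window shown lies at chr17:7262429-7262728 (minus strand), and a second CLDN7 window, at chr17:7263164-7263463, is not shown. CLDN3 has its window at chr7:73770221-73770520 (minus strand) and CLDN4 at chr7:73830746-73831045 (plus strand). The windows of CLDN10 belong to 2 separate starts, at chr13:95433505-95433804 and chr13:95552470-95552769 (both plus strand). Capitals mark the E-box CAGGTG or its reverse complement CACCTG, the letters that SNAI and ZEB factors are known to bind.
CLDN7: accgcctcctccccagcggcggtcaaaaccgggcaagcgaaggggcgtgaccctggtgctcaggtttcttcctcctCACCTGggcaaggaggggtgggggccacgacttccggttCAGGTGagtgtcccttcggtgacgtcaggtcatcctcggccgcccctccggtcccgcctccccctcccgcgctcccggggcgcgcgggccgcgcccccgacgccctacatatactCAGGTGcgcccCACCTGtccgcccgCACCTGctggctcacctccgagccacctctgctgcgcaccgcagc
CLDN3: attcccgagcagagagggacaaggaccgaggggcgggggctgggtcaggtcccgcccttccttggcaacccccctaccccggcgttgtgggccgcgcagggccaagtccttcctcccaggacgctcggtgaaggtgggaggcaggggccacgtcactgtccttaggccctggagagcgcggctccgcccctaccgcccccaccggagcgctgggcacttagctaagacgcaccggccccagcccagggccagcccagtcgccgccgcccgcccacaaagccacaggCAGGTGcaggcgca
CLDN4: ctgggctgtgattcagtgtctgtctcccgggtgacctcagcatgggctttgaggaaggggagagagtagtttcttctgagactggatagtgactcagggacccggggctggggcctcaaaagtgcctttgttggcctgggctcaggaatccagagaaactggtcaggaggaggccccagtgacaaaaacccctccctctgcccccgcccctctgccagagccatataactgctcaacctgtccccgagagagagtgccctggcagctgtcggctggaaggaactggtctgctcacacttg
CLDN10 first start: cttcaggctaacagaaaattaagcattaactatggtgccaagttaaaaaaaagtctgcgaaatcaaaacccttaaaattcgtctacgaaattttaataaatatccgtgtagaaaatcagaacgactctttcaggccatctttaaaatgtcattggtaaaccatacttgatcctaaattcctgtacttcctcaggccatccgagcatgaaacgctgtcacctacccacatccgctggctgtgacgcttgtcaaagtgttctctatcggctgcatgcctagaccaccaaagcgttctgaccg
CLDN10 second start: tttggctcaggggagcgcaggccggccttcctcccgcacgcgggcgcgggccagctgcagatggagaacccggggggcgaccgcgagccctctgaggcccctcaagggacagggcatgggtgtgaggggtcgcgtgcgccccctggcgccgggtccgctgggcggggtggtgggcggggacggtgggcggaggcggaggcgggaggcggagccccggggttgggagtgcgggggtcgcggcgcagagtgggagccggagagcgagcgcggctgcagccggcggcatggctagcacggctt

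The motif was searched on both strands, and its matches in the shown windows do not overlap. The CLDN7 window shown holds 5 matches, which begin at bases 77, 116, 231, 242 and 256 of the window, counted from 1 at its 5′ end. CLDN3 holds 1, at base 287, and the windows of CLDN4 and CLDN10 hold 0. Among all 35116 promoter windows of this length, 20.6% held at least 1 match and 0.094% (33 windows) held 5 or more. Of the windows of the 7 junction genes, 5 of 13 held a match, and a second CLDN7 window held 0. The 2 CLDN10 windows differ in base composition, with 41.7% G and C at the first start and 77.3% at the second. The deposited values are per gene, so which start was used was not measured. In RefSeq's gene order CDH3 and CDH1 are neighbouring coding genes on chromosome 16, and CLDN3 and CLDN4 are neighbours on chromosome 7.

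One library stood apart from its line, and it bears on most results below. Over the tested genes on the log2(FPKM + 1) scale, the HCC70 libraries correlated with each other at r = 0.967 to 0.978 and the MDA-MB-468 K18+ and K18+K14+ libraries at 0.919. The library labelled as MDA-MB-468 K18+Vim+ correlated with those 2 at 0.828 and 0.791, against 0.743 to 0.838 for pairs of libraries from different lines. MDA-MB-468 is known to lack SMAD4 and RB1 and to carry extra copies of EGFR, and this library went against all of these: SMAD4 was 5.19 FPKM (0.31 to 0.566 in the other MDA-MB-468 libraries), RB1 6.68 (0.269 to 0.307) and EGFR 10.4 (70.7 to 153). It also carried KRT18, the gene of a sort antigen, at 67.7 FPKM against 464 and 569. VIM was highest in both vimentin-sorted libraries, at 54.8 FPKM in HCC70 (11.1 to 13.4 in the others of that line) and 259 in the library labelled as MDA-MB-468 K18+Vim+ (12.2 to 13.3). KRT14 was highest in the K14-sorted library of each line, at 48.6 and 279 FPKM. The summed FPKM of 5 epithelial markers was 2433 to 5702 in 5 libraries and 276 in the library labelled as MDA-MB-468 K18+Vim+. That of 10 mesenchymal and fibroblast markers was 27.4 to 146 in the 5 and 287 in that library, with 3 to 6 of the 10 at the 0.1 FPKM floor of the table. VIM, itself a sort antigen, gave 259 of the 287. Of the other markers with a mean of at least 1 FPKM, CDH2 was higher there than in MDA-MB-468 K18+ (6.43 against 0.112 FPKM). FN1 (16.9 against 25.2) and COL1A1 (2.78 against 3.55) were lower. CDH2 reached that mean only through this library, so its higher level there was a condition of its being read and supports nothing. Sums for 6 endothelial, 6 immune and 3 erythroid markers did not exceed 1.82, 8.01 and 1.15 FPKM in any library. What this library holds was not tested, and results are given with and without it.

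**Figure D1:**
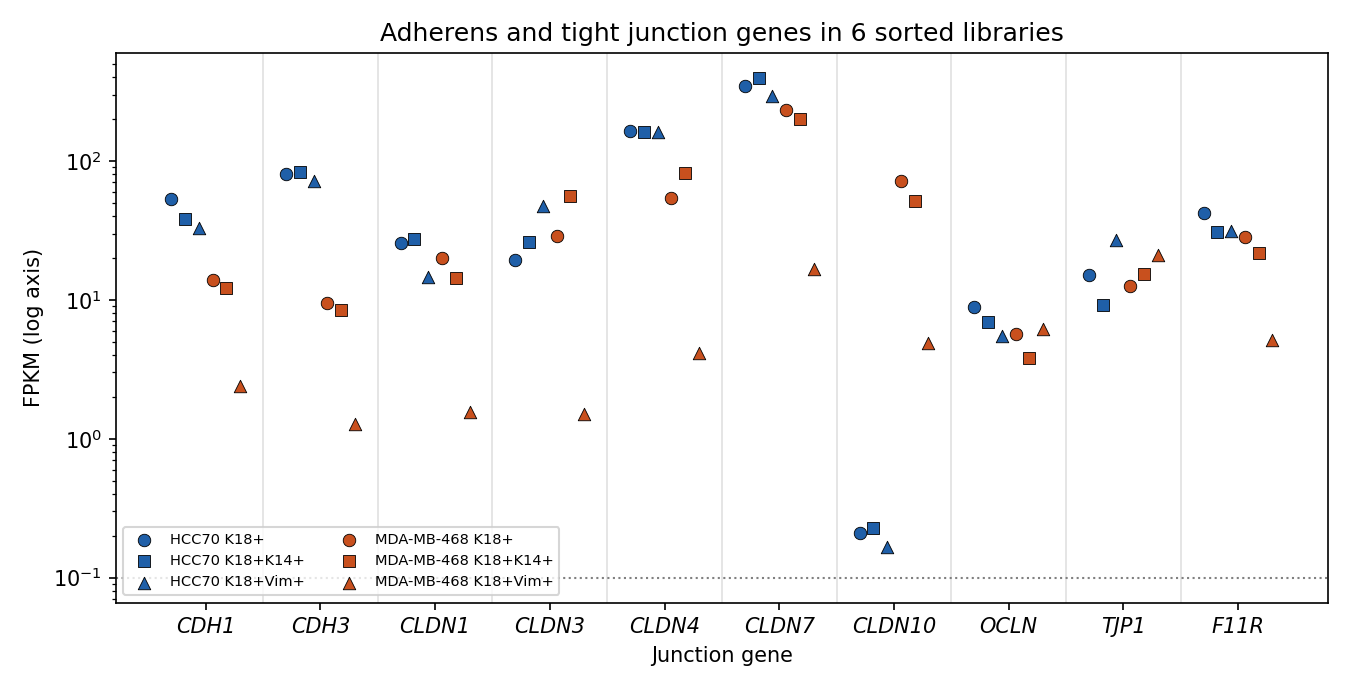
FPKM of the 10 junction genes in each of the 6 libraries, on a log axis; colours are the lines, symbols the sorted populations, and the dotted line is the 0.1 FPKM floor. The triangles of the library labelled as MDA-MB-468 K18+Vim+ lie lowest for 7 of the genes; CLDN10 lies at 0.165 to 0.229 FPKM in HCC70.

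CDH1 encodes E-cadherin, the main adhesive cadherin of epithelia. Its level was 53.3, 38.2 and 33.1 FPKM in the K18+, K18+K14+ and K18+Vim+ libraries of HCC70, and 14, 12.2 and 2.40 FPKM in those of MDA-MB-468. Every HCC70 library was above every MDA-MB-468 library, and within each line the order was K18+, K18+K14+, K18+Vim+. CDH3 encodes P-cadherin, the cadherin of basal epithelial cells. It was at 80.6, 84.0 and 71.8 FPKM in the HCC70 libraries and at 9.57, 8.40 and 1.28 FPKM in those of MDA-MB-468. The lines did not overlap for CDH3 either, and the 3 HCC70 values lay close together. The ratio of P-cadherin to E-cadherin transcripts was 1.51, 2.20 and 2.17 in HCC70 and 0.68, 0.69 and 0.53 in MDA-MB-468. P-cadherin was thus the more abundant of the pair in each HCC70 library and the less abundant in each MDA-MB-468 library, the library that stands apart included.

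CLDN7 was the most abundant of the 10 genes in 5 of the 6 libraries. Claudin-7 is a claudin found widely in simple epithelia. Its level was 346, 396 and 292 FPKM in HCC70 and 234, 200 and 16.6 FPKM in MDA-MB-468. At its highest it lay above 99.1% of all genes measured in its library, and in the library labelled as MDA-MB-468 K18+Vim+ above 76.2%. CLDN4, a claudin that tightens the seal against sodium, was at 165, 161 and 163 FPKM in the HCC70 libraries and at 54.5, 81.7 and 4.11 FPKM in those of MDA-MB-468. The HCC70 values differed by less than 5 FPKM and all lay above those of the other line.

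CLDN3, the chromosomal neighbour of CLDN4, showed another order. It was at 19.3, 26.2 and 47.6 FPKM in the HCC70 libraries and at 28.7, 55.9 and 1.51 FPKM in those of MDA-MB-468. The lines overlapped, with the vimentin-sorted library the highest of its line in HCC70 and the lowest in MDA-MB-468. The ratio of CLDN4 to CLDN3 was accordingly 8.56, 6.13 and 3.43 in HCC70 and 1.90, 1.46 and 2.72 in MDA-MB-468. CLDN1, a barrier claudin needed for the skin's seal, was at 25.7, 27.4 and 14.5 FPKM in the HCC70 libraries and at 20.0, 14.4 and 1.55 FPKM in those of MDA-MB-468. Its vimentin-sorted library was the lowest of each line, while the values of the 2 lines overlapped.

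CLDN10, whose isoforms form pores for cations or anions, had the largest fitted difference between the lines. It was at 0.21, 0.229 and 0.165 FPKM in HCC70, close to the table's floor of 0.1, and at 72.1, 51.4 and 4.90 FPKM in MDA-MB-468. The library labelled as MDA-MB-468 K18+Vim+, which departs from its line in SMAD4, RB1 and EGFR, also lay above every HCC70 library. CLDN10 reached a mean of 1 FPKM only through MDA-MB-468, so its order between the lines was a condition of its being tested and supports nothing.

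Summed over the 5 claudin genes, the level was 557, 610 and 517 FPKM in HCC70 and 409, 404 and 28.7 FPKM in MDA-MB-468. CLDN7 made up the largest share of that sum in each library, from 49.6% in MDA-MB-468 K18+K14+ to 64.8% in HCC70 K18+K14+. CLDN4 held 26.4% to 31.5% in HCC70 and 13.3% to 20.2% in MDA-MB-468. CLDN10 held 0.032% to 0.038% in HCC70 and 17.6%, 12.7% and 17.1% in MDA-MB-468. In the library labelled as MDA-MB-468 K18+Vim+ the sum was the smallest by far, yet the shares of CLDN7 (57.9%), CLDN4 (14.3%), CLDN1 (5.4%) and CLDN10 (17.1%) lay near those of MDA-MB-468 K18+ (57.2%, 13.3%, 4.9% and 17.6%). CLDN3 departed more, with 5.3% there against 7.0% in MDA-MB-468 K18+ and 13.9% in K18+K14+. Whether these shares differ between populations was not tested.

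**Figure D2:**
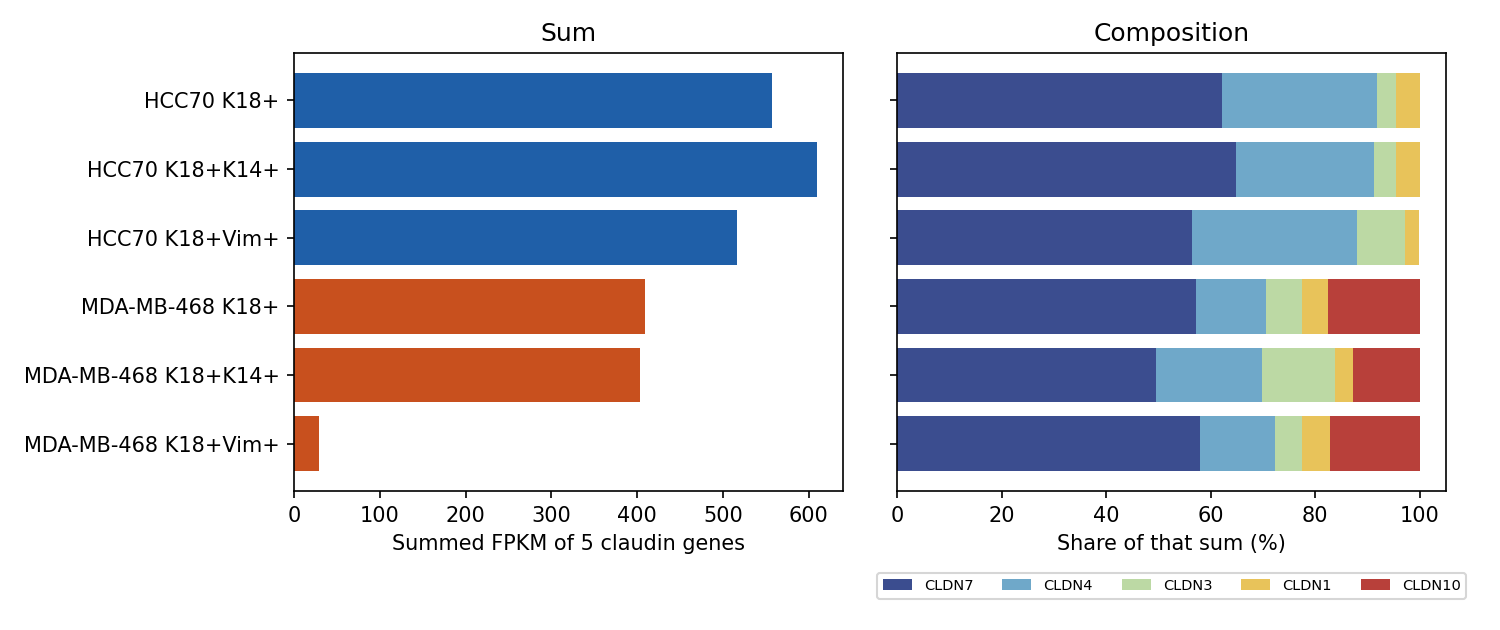
Left, summed FPKM of CLDN1, CLDN3, CLDN4, CLDN7 and CLDN10 in each library; right, the share of each gene in that sum, in percent. The sum is 28.7 FPKM in the library labelled as MDA-MB-468 K18+Vim+ and 404 to 610 in the others, and the CLDN10 band is visible in the MDA-MB-468 libraries alone.

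OCLN, the gene of occludin, had 8.91, 6.88 and 5.53 FPKM in the HCC70 libraries and 5.70, 3.82 and 6.20 FPKM in MDA-MB-468. These values lay within a narrow range and the lines overlapped. A near-identical copy of part of the gene (OCLNP1) exists in the genome, so that its count may be shared between the 2. F11R encodes JAM-A, an immunoglobulin-like adhesion protein. It was at 42.3, 30.8 and 31.4 FPKM in the HCC70 libraries and at 28.3, 21.6 and 5.13 FPKM in those of MDA-MB-468, with every HCC70 library above every MDA-MB-468 library. TJP1 was at 15.0, 9.18 and 27.2 FPKM in the HCC70 libraries and at 12.6, 15.3 and 20.9 FPKM in those of MDA-MB-468. The ZO-1 transcript was thus highest in the vimentin-sorted library of each line, and of the 10 genes it was the most abundant in the library labelled as MDA-MB-468 K18+Vim+. How reads shared by genes and their antisense neighbours (CDH3-AS1 and CLDN10-AS1) were counted is not given in the sources used here, so that values of CDH3 and CLDN10 could hold reads of both.

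The cell lines were compared with limma on log2(FPKM + 1), with population as a second term and p-values adjusted over all 12454 genes (Benjamini-Hochberg, threshold 0.05). CDH1 and CDH3 were lower and CLDN10 was higher in MDA-MB-468, and the other 7 genes did not pass. For CDH1 the log2 difference was -2.25 ± 0.42 (SE, adjusted p = 0.0275), and for CDH3 -3.71 ± 0.47 (adjusted p = 0.0116). CLDN10 differed by 4.56 ± 0.69 (adjusted p = 0.0169). Of all genes tested, 12.2% passed, 7.68% as lower and 4.54% as higher in MDA-MB-468, beside 3 of the 10 junction genes. CLDN10 passed the filter on low values only through MDA-MB-468 (mean 0.201 FPKM in HCC70), so that its difference was a condition of its being tested and its call supports nothing. The other 9 genes reached a mean of 1 FPKM in both lines. CLDN4 was at -2.52 ± 0.76 (adjusted p = 0.0768), and CLDN1, CLDN7 and F11R were at -1.28, -1.87 and -1.15 (adjusted p = 0.122 to 0.138). CLDN3 (-0.89), OCLN (-0.38) and TJP1 (0.02) had adjusted p = 0.454 to 0.969. The median over the 10 genes was -1.22, and over all genes 0.01.

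These values depend on a few libraries. With the 4 K18+ and K18+K14+ libraries alone, 27.0% of all genes passed, and 4 of the 10 did: CDH1 (-1.71 ± 0.33, adjusted p = 0.00723), CDH3 (-3.06 ± 0.33, adjusted p = 0.000492), CLDN4 (-1.28 ± 0.39, adjusted p = 0.0414) and CLDN10 (5.67 ± 0.34, adjusted p = 4.37e-05). The call of CLDN10 supports nothing here either, since the filter was the same. CLDN3 turned to 0.81 ± 0.34 there (adjusted p = 0.113). CLDN1, CLDN7 and F11R came to -0.62, -0.77 and -0.53 and OCLN to -0.64 (adjusted p = 0.188 to 0.266). The median over the 10 genes was -0.63 in place of -1.22. Leaving out only the library labelled as MDA-MB-468 K18+Vim+ gives -0.63 by construction and is no separate check. The HCC70 K18+Vim+ library then has no partner and adds nothing to the fitted line difference. CDH3 passed with any 1 of the 6 libraries left out, with limma's adjusted p at most 0.0325. CDH1 and CLDN10 missed the threshold without HCC70 K18+ (adjusted p = 0.102 and 0.0559), without HCC70 K18+K14+ (0.0529 and 0.0506) or without MDA-MB-468 K18+ (0.101 and 0.0561). With no filter on low values, CDH1, CDH3 and CLDN10 all missed it (adjusted p = 0.166, 0.138 and 0.168), as did every other gene.

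By plain ranges, 5 of the 10 genes (CDH1, CDH3, CLDN4, CLDN7 and F11R) had all 3 HCC70 libraries above all 3 MDA-MB-468 libraries, as 21.0% of all genes did. CLDN10 had the opposite order, as 20.1% of all genes did. Its difference was a condition of its being tested, so its place in these counts by range supports nothing. The other 4 overlapped between lines. Without the vimentin-sorted libraries, 7 genes were higher in both HCC70 libraries (32.2% of all genes), CLDN3 and CLDN10 were higher in both MDA-MB-468 libraries (30.4%), and TJP1 alone overlapped.

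Whether K14-positive cells differ in their junction genes from cells positive for K18 alone was asked within each line and across both. No junction gene passed limma's test in K18+K14+ against K18+, where 0% of all genes passed. Fitted log2 differences ran from -0.41 to 0.68 (adjusted p = 0.863 to 0.997), and 0 of the 10 genes had an unadjusted p under 0.05, against 428 of all genes. CDH1, OCLN and F11R were lower in the K18+K14+ library of both lines: by line, HCC70 first, the log2 differences were -0.47 and -0.19 for CDH1, -0.33 and -0.47 for OCLN, and -0.45 and -0.38 for F11R. CLDN3 was higher in both, at 0.42 and 0.94. Of all genes, 43.7% were lower and 20.2% higher in both lines, so that 3 and 1 of the 10 are no more than genes at large show. The other 6 genes had opposite signs in the 2 lines, such as TJP1 at -0.65 and 0.26 and CLDN4 at -0.04 and 0.57. No junction gene differed by 1 or more on the log2 scale in either line, while 3.10% of all genes did in HCC70 and 24.7% in MDA-MB-468. CLDN10, close to the floor in HCC70, could not have been lower by that much there. The median of all genes was -0.15 for HCC70 and -0.17 for MDA-MB-468, and quantile normalization moved these medians by 0.15 and 0.17 to 0. The fitted values of CDH3, CLDN1 and TJP1 turned sign under that scaling.

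**Figure D3:**
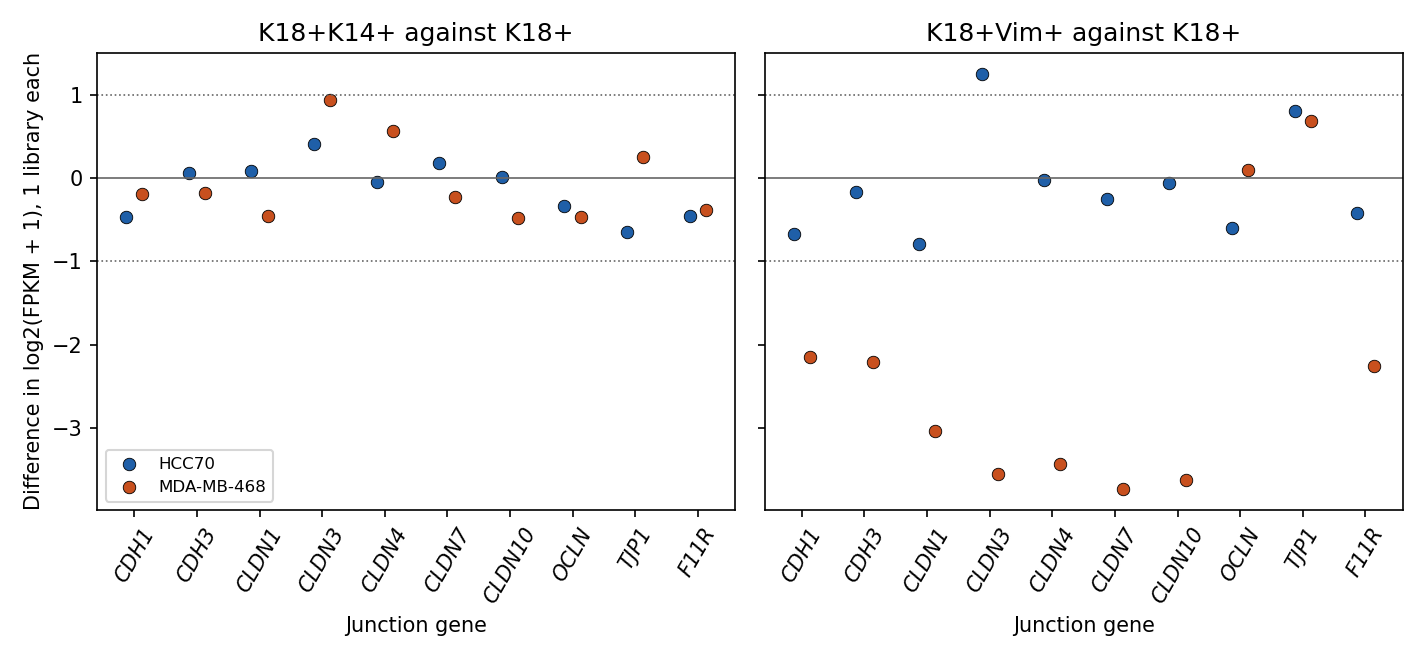
Difference in log2(FPKM + 1) of each junction gene from the K18+ library of its line, for K18+K14+ (left) and K18+Vim+ (right), 1 point per line; dotted lines mark differences of 1. On the left all points lie within the dotted lines; on the right 8 MDA-MB-468 points lie below -2 and CLDN3 in HCC70 lies at 1.26.

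The largest differences were those of the library labelled as MDA-MB-468 K18+Vim+ from MDA-MB-468 K18+. In it 8 of the 10 junction genes were lower by at least 1 on the log2 scale and 0 were higher, while 16.9% of all genes were lower and 11.6% higher by that much. The claudins were lowest: CLDN7 was at 0.071 of its K18+ level in FPKM, CLDN3 at 0.0527, CLDN4 at 0.0754, CLDN10 at 0.068 and CLDN1 at 0.0776. The cadherins and JAM-A were at higher fractions, with CDH1 at 0.171, CDH3 at 0.134 and F11R at 0.181. OCLN and TJP1 were not lower, at 1.09 and 1.66 of the K18+ level. All 10 genes together summed to 64.6 FPKM there, against 465 to 779 in the other libraries. The summed epithelial markers differed in the same direction (276 against 3604 FPKM in MDA-MB-468 K18+), and their part in these differences was not tested.

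In HCC70, where the vimentin-sorted library correlated with the others of its line, most of these genes differed less, and CLDN3 went the other way. By the same limit 0 of the 10 genes were lower (3.42% of all genes) and 1, CLDN3, was higher (1.65%). CLDN10, at 0.21 FPKM in HCC70 K18+ with a floor of 0.1, could not have been lower by that much. CLDN3 was at 2.46 of its K18+ level and TJP1 at 1.81, while CLDN1 was at 0.562, OCLN at 0.62 and CDH1 at 0.621. CLDN4 and CDH3 were at 0.988 and 0.891. The median log2 difference of the 10 genes was -0.21, close to the -0.16 of all genes in that line, while in MDA-MB-468 it was -2.65 against -0.04. By sign, 7 genes were lower in both lines (CDH1, CDH3, CLDN1, CLDN4, CLDN7, CLDN10 and F11R), though CLDN4 and CLDN10 by only 0.02 and 0.05 in HCC70, and 33.9% of all genes were lower in both. TJP1 was higher in both (log2 0.81 and 0.69), as were 16.5% of all genes, and CLDN3 and OCLN had opposite signs.

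Across both lines, K18+Vim+ against K18+ gave no call in limma for the junction genes or for any gene (0% of 12454). An unadjusted p under 0.05 was reached by 2 of the 10 genes, CDH1 (-1.41 ± 0.52, adjusted p = 0.863) and CLDN1 (-1.91 ± 0.59, adjusted p = 0.863), and by 532 of all genes. TJP1 was at 0.75 ± 0.43 (adjusted p = 0.863) and CLDN3 at -1.15 ± 1.21 (adjusted p = 0.915), the widest error of the 10. If the HCC70 K18+Vim+ library is left out, so that the library labelled as MDA-MB-468 K18+Vim+ alone stands for the population and is assumed to vary like the others, 8 genes passed as lower, with 7.70% of all genes called lower. They ranged from CDH3 (-2.16, adjusted p = 0.0132) to CLDN3 (-3.69, adjusted p = 0.00241), with OCLN (0.14) and TJP1 (0.46) not passing. If that library is left out instead, 0 of the 10 passed, with CLDN3 at 1.39 ± 0.46 (adjusted p = 0.894). The calls therefore rest on 1 library. With HCC70 K18+Vim+ as the sole library of its population, the fit over both lines gave -0.92 for CLDN1 and -0.60 for CDH1. Within HCC70 the differences from K18+ were -0.79 and -0.67.

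K18+Vim+ against K18+K14+ likewise gave no call (0% of all genes; limma, unadjusted p under 0.05 for 1 of the 10 and 680 of all genes). Fitted log2 differences of the junction genes ran from -2.00 for CLDN4 to 0.95 for TJP1, with adjusted p = 0.682 to 0.903. TJP1 was higher in both lines, by 1.47 in HCC70 and 0.43 in MDA-MB-468. CLDN3 was 0.84 higher in HCC70 and -4.50 in MDA-MB-468, and OCLN was -0.27 and 0.58.

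The proteins that hold cadherins to the cytoskeleton were read from a list of 14 catenins and adherens junction partners, 11 of which were tested. None passed limma's test between lines or populations. Between lines 5 of the 11 had an unadjusted p under 0.05, as did 33.0% of all genes (4116 of 12454). CTNNA1, the alpha-catenin that binds actin, was at 67.0 to 87.6 FPKM in HCC70 and 34.0 to 42.7 in MDA-MB-468. CTNNB1, beta-catenin, had the opposite order, at 19.7 to 33.7 FPKM in HCC70 and 44.1 to 62.7 in MDA-MB-468 (log2 difference 1.15 ± 0.33, limma adjusted p = 0.068). CTNND1, p120-catenin, which keeps cadherins at the membrane, was at 31.4 to 42.9 and 12.3 to 39.3 FPKM. In the library labelled as MDA-MB-468 K18+Vim+, 1 of the 11 was higher than in K18+ by at least 1 on the log2 scale and 7 were lower, among them the nectin gene NECTIN4 (1.60 against 21.4 FPKM) and plakoglobin, JUP (9.90 against 36.6 FPKM). Of all genes, 11.6% were higher and 16.9% lower by that much. The other genes of widest range were AFDN, which encodes afadin, at 6.83 to 53.0 FPKM, and PLEKHA7 at 2.17 to 15.7.

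Of 16 other classical and related cadherin genes 3 were tested and 0 passed in limma (1 with an unadjusted p under 0.05 between lines, beside 33.0% of all genes). CDH2, N-cadherin, was at the 0.1 FPKM floor in 4 libraries, at 0.112 in MDA-MB-468 K18+ and at 6.43 FPKM in the library labelled as MDA-MB-468 K18+Vim+. It reached a mean of 1 FPKM, and so was tested, only through that library. The HCC70 K18+Vim+ library, whose VIM was also highest in its line, had CDH2 at the floor. CDH24 was at 34.0 to 43.4 FPKM in HCC70 and 9.92 to 23.7 in MDA-MB-468, and CDH18 at 0.481 to 4.96 over all libraries.

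Of 19 other claudin genes 6 were tested and 0 passed in limma (0 with an unadjusted p under 0.05 between lines, beside 33.0% of all genes). CLDN8 was at 3.48 to 8.81 FPKM in HCC70, 33.5 and 23.2 in MDA-MB-468 K18+ and K18+K14+, and 2.47 in the library labelled as MDA-MB-468 K18+Vim+. CLDN9 and CLDN23 were also lowest there, at 0.81 and 1.71 FPKM. CLDN15 was highest there, at 24.0 FPKM against 6.68 to 15.9. Of the 6, 3 were lower and 1 higher by at least 1 on the log2 scale than in MDA-MB-468 K18+, beside 16.9% and 11.6% of all genes.

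Tight junction scaffolds and membrane partners numbered 22, of which 18 were tested and 2 passed between lines, both lower in MDA-MB-468. That share is near the 12.2% of all genes that passed, and is no result about the list. PARD3, a polarity scaffold that helps place the junction, was at 37.9 to 55.2 FPKM in HCC70 and 5.82 to 11.8 in MDA-MB-468 (-2.47 ± 0.35, limma adjusted p = 0.0148). CGN, cingulin, which binds ZO-1, was at 22.6 to 30.4 and 3.94 to 12.6 FPKM (-1.86 ± 0.35, adjusted p = 0.0272). Neither pair of ranges overlapped. Both calls were lost on leaving out HCC70 K18+, HCC70 K18+K14+ or MDA-MB-468 K18+, and that of CGN also without MDA-MB-468 K18+K14+ (limma adjusted p up to 0.0599 for PARD3 and 0.111 for CGN). TJP3, the gene of ZO-3, and CRB3, an apical polarity protein, were at 48.3 to 146 and 10.5 to 34.2 FPKM in 5 libraries and at 7.58 and 2.01 in the library labelled as MDA-MB-468 K18+Vim+. JAM3 had the reverse pattern, with 11.8 FPKM there and at most 0.905 elsewhere. Of the 18, 7 were lower and 1 higher by at least 1 in that library than in MDA-MB-468 K18+, beside 16.9% and 11.6% of all genes. The 1 higher was JAM3, which reached a mean of 1 FPKM only through that library, so its place in this count supports nothing.

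**Figure D4:**
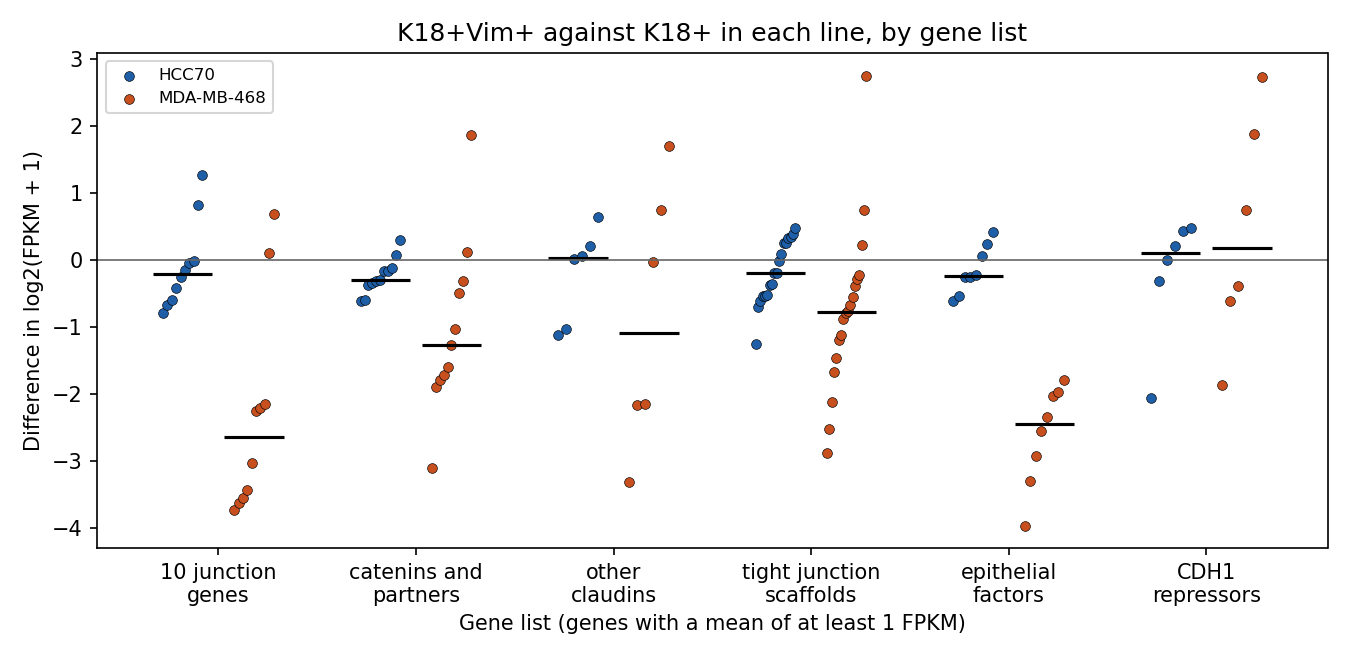
Difference in log2(FPKM + 1) of K18+Vim+ from K18+ for each tested gene of 6 lists, blue for HCC70 and orange for MDA-MB-468; horizontal bars are list medians. HCC70 medians lie between -0.30 and 0.10, and MDA-MB-468 medians between -2.65 for the 10 junction genes and 0.18 for repressors of CDH1.

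Factors known to act on these genes were read in the same way. Of 9 repressors of CDH1 transcription 6 were tested and 0 passed in limma (3 with an unadjusted p under 0.05 between lines, beside 33.0% of all genes). SNAI2, Slug, was at 13.5, 9.23 and 2.48 FPKM in HCC70, at the 0.1 floor in MDA-MB-468 K18+ and K18+K14+, and at 3.04 in the library labelled as MDA-MB-468 K18+Vim+. In HCC70 it was thus lowest in the vimentin-sorted library. SNAI1 was highest there, at 7.60 FPKM against 5.40 and 2.82, and at 0.793 to 1.73 in MDA-MB-468. ZEB1 and ZEB2 had means below 1 FPKM and were not tested. ZEB1 was highest in the vimentin-sorted library of each line, at 1.51 and 2.08 FPKM against at most 0.527 elsewhere. ZEB2 was at 4.39 FPKM in the library labelled as MDA-MB-468 K18+Vim+ and at most 0.51 elsewhere. TWIST1 was at 8.98 FPKM in the library labelled as MDA-MB-468 K18+Vim+ and at 0.1 to 0.509 in the others. It reached a mean of 1 FPKM, and so was tested, only through that library. KLF8 ranged from 0.611 to 9.20 FPKM and TCF4 from 0.649 to 7.57. Of 9 epithelial transcription and splicing factors 8 were tested, and ESRP1, an epithelial splicing regulator, passed as lower in MDA-MB-468, so that 1 of 8 passed beside 12.2% of all genes. ESRP1 was at 129, 94.8 and 111 FPKM in HCC70 and at 47.1, 28.5 and 3.88 in MDA-MB-468 (-2.55 ± 0.63, limma adjusted p = 0.0481), and the call was lost without any 1 of the K18+ or K18+K14+ libraries (adjusted p up to 0.0876). It was also lost under quantile normalization (adjusted p = 0.0557), with a length trend removed (0.0544) and with no population term (0.0592). Without the library labelled as MDA-MB-468 K18+Vim+ the difference was -1.57 ± 0.36 (adjusted p = 0.0152). All 8 factors were lower by at least 1 in the library labelled as MDA-MB-468 K18+Vim+ than in MDA-MB-468 K18+, beside 16.9% of all genes. ELF3 was at 20.2 against 333 FPKM, GRHL2 at 1.52 against 18.1 and OVOL2 at 0.542 against 6.87. In HCC70 none of the 8 was lower by at least 1, beside 3.42% of all genes, and ELF3 stayed at 532 to 622 FPKM.

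How the junction genes vary together was described by Pearson's r with CDH1 on the log2(FPKM + 1) scale over the 6 libraries, which share 2 lines. CDH3, CLDN4, F11R, CLDN7 and CLDN1 followed CDH1 with r = 0.97, 0.95, 0.94, 0.92 and 0.90. Without the library labelled as MDA-MB-468 K18+Vim+ the first 4 were at 0.97, 0.90, 0.89 and 0.92 and CLDN1 at 0.60. CLDN3 went from 0.67 to -0.62, so that over 5 libraries it ran opposite to CDH1. CLDN10 went from -0.52 to -0.95, but its line difference was a condition of its being tested, so these values support nothing. Within MDA-MB-468, CDH1 and CLDN10 were both lower in K18+K14+ than in K18+, by log2 differences of -0.19 and -0.48. In HCC70 these differences were -0.47 and 0.02, with CLDN10 close to the floor. OCLN was at 0.42 and 0.86 and TJP1 at -0.28 and 0.05. Over all tested genes, the 5 most like CDH1 were MAL2 (r = 0.9995), WWTR1 (0.9954), FAF1 (0.9948), EPHX1 (0.9948) and TSPAN1 (0.9944). Those most like CDH3 were FAM83E (0.9992), CYB561D1 (0.9991), AIFM3 (0.9985), NTN5 (0.9985) and RIN3 (0.9973). With 12454 genes and 6 points, values this high are a ranking and no more.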

How the data were processed

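RNA was sequenced from 6 sorted libraries, 3 populations of each of 2 cell lines, and samples were grouped by the labels. Per the labels' protocols, RNA was recovered from methanol-fixed cells with a kit for nucleic acid isolation; such RNA can be fragmented, and loss of fragments can depend on transcript length. The submitters' processing notes name TopHat2 and GRCh37. For the counting tool, annotation, strand setting and depth the sources used here give nothing. The authors deposited FPKM per Entrez Gene ID (18807 rows, with a floor of 0.1 and a ceiling of 10000). The 7 rows with a blank value, all in the MDA-MB-468 K18+Vim+ column, were dropped, and for 5 repeated IDs the row of lower mean was dropped too.

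Genes whose mean reached 1 FPKM were fitted as log2(FPKM + 1) with limma 3.58.1 in R 4.3.3 (eBayes with trend), with population and line as terms. All 6 libraries entered 1 fit, with 2 residual degrees of freedom and Benjamini-Hochberg adjustment over all genes at 0.05. This scale understates the change of low genes. Tables were processed with Python 3.11.15 (numpy 2.4.6, pandas 2.3.3); matplotlib 3.10.9 drew the figures. Names, gene order and promoters came from RefSeq tables of GRCh38.p14, another build than the data's, and transcript lengths from an annotation that matched 99.9% of tested genes.

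Named genes were all 10 junction genes, 3 catenins, CDH2, the sort antigens and 3 genes known to be altered in MDA-MB-468. From each gene list came those past the threshold and up to 4 of the widest range, and for CDH1 and CDH3 the 5 genes of the most similar pattern. SNAI1, ZEB1, ZEB2, FN1 and COL1A1 were named outside this rule. The members and lists were chosen with earlier results of these data known. Alternatives were no line term, only the 4 libraries compared, pseudocounts of 0.1 and 5, no filter, a minimum of 5 FPKM, quantile normalization, no trend, a transcript length trend removed and each library left out. The differences within a line under other pseudocounts and scaling were added after seeing the data.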

Additional observations from a re-analysis of the deposited data

Results flagged for a closer look

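CLDN3 went opposite ways in the 2 lines between the vimentin-sorted and the K18+ libraries. Its log2(FPKM + 1) difference was 1.26 in HCC70 (47.6 against 19.3 FPKM) and -3.56 in MDA-MB-468 (1.51 against 28.7 FPKM). The difference between the lines was not tested, since each value compares 1 library with 1 library. The MDA-MB-468 value rests on the library labelled as MDA-MB-468 K18+Vim+, whose SMAD4, RB1 and EGFR levels depart from its line.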

How the results depend on the processing

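Between lines, 1522 genes passed as fitted. With only the 4 K18+ and K18+K14+ libraries 3366 did, and CLDN3 turned to 0.81. With no filter on low values, 0 genes and 0 junction genes passed. Leaving out each library in turn gave 206 to 3360 genes and 1 to 4 junction genes, with CLDN3 at -1.86 to 0.81 and TJP1 at -0.30 to 0.22. The lowest count came without HCC70 K18+, and 241, 288 and 326 genes passed without MDA-MB-468 K18+, HCC70 K18+K14+ and MDA-MB-468 K18+K14+. In K18+Vim+ against K18+, leaving out a library gave 0 to 1500 genes and 0 to 8 junction genes, the highest without HCC70 K18+Vim+. CLDN3 ran from -3.69 to 1.39, CLDN4 from -3.59 to 0.14 and OCLN from -0.64 to 0.14. In K18+Vim+ against K18+K14+ the counts were 0 to 1988 genes and 0 to 8 junction genes. CLDN3 ran from -4.37 to 0.71, CLDN10 from -3.28 to 0.05, OCLN from -0.24 to 0.54 and F11R from -1.86 to 0.01. In K18+K14+ against K18+ leaving out a library gave 0 to 1 genes, with CDH1 at -0.84 to 0.18, CDH3 at -0.62 to 0.51 and CLDN1 at -0.88 to 0.52. CLDN3 ran from -0.78 to 2.14, CLDN4 from -0.89 to 1.43, CLDN7 from -0.99 to 0.96, CLDN10 from -1.25 to 0.79, TJP1 from -0.69 to 0.29 and F11R from -0.91 to 0.08. Quantile normalization turned CDH3 to 0.14, CLDN1 to 0.02 and TJP1 to 0.05 there, and removing the length trend turned TJP1 to 0.04. Fewer libraries leave fewer degrees of freedom, and the cause of these shifts was not tested. Depth is unknown, so its part in these results cannot be given. The cell line term pairs the libraries of a line. Without it, 0 genes passed in each comparison of populations, as with it, and without the population term 1875 genes passed between lines.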

Other observations

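The 5 epithelial markers did not go one way in the vimentin-sorted library of HCC70. EPCAM, an epithelial adhesion molecule, was at 41.7 FPKM there against 69.3 in HCC70 K18+, a log2(FPKM + 1) difference of -0.72. The keratin genes KRT7, KRT8, KRT18 and KRT19 were at 0.63, 0.60, 0.45 and 0.02. In the library labelled as MDA-MB-468 K18+Vim+ all 5 were lower than in MDA-MB-468 K18+, by log2 differences of -3.62 for EPCAM and -4.18, -2.90, -2.76 and -4.05 for the keratins in the same order. Each value compares 1 library with 1 library.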
